A study of Homo sapiens with 2 samples.

Results

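The subject here is 222 genes of 24 families of developmental transcription factors, measured in PC3, an established human prostate cancer cell line. The genes were taken by name: every annotated symbol that begins with FOX, SOX, HOX, PAX, LHX, NKX, TBX, GATA, MEIS, PBX, IRX, DLX, MSX, POU, RUNX, TEAD, GRHL, TFAP2, HES, HEY, HAND, EMX or OTX and goes on as the numbered family members do, with the sine oculis genes (SIX2 and its kin). They are 222 of the 13864 genes with a symbol on the array, read by 224 of 23641 probe sets. Of the 222, 201 are genes of the families themselves, and 21 are antisense or intronic transcripts, pseudogenes, neighbouring reading frames or POU cofactors whose symbols begin alike. The rule reads names alone and no measured value.

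There were 2 samples, each a PC3 line that stably overexpressed a microRNA: miR-95 in one, a control miR in the other. Both were kept in DMEM with fetal bovine serum, and their total RNA was read on Affymetrix gene arrays after biotin labelling, with 1 array for each group. In such bulk RNA, fewer cells of a kind and less RNA per cell cannot be told apart. The labels do not say whether a line was 1 clone or a pool, nor which vector carried the microRNA. With 1 array a group, no value has a replicate error and no difference has a test, so each number describes these 2 arrays. MicroRNAs repress messages that pair with their seed, the bases near their 5′ end. RefSeq gives both mature arms of MIR95, shown because miR-95 is what separates the samples (GRCh38.p14, chromosome 4, minus strand, 8005312 to 8005333 for the 3p arm and 8005347 to 8005367 for the 5p arm), with bases 2 to 8 in capitals.
miR-95-3p: uUCAACGGguauuuauugagca
miR-95-5p: uCAAUAAAugucuguugaauu
Which arm the line made is not given in the labels, and 0 probe sets used here named MIR95, so the overexpression itself was not checked.

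These families set up body plan, organs and cell types in the embryo. Each is defined by a DNA-binding domain: a forkhead in FOX, an HMG box in SOX, a homeodomain in HOX, LHX, NKX, DLX, the sine oculis genes and others, a T-box in TBX, a TEA domain in TEAD, a basic helix-loop-helix in HES, HEY and HAND. Most members are silent in any given adult cell, and a small set is kept on and marks the tissue of origin. In prostate epithelium HOXB13 and FOXA1 are such markers. PC3 cells grow without androgen.

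Values are log2 expression as deposited, and differences are miR-95 minus control miR after each array was centred on its median over genes (7.495 for miR-95 and 7.46 for control miR), which takes 0.035 off every deposited difference. A gene counted as detected if it read at or above the array median on either array. Each level is set against its array's median over genes. Probe sets differ in affinity, so this is a rough guide, and no conclusion is drawn from ranking the levels of single genes. Of the markers fixed for the cell type, 6 of 7 measured PC3 markers were detected, KRT8, KRT18, KRT19, EPCAM, VIM and CD44, with PSCA below the rule. KLK2, KLK3 and FOLH1, of androgen-dependent luminal cells, were below it on both arrays, as were all measured basal, neuroendocrine, fibroblast, endothelial and leukocyte markers (10 genes). Among those 10, LUM, a fibroblast proteoglycan, read 6.04 with miR-95 and 7.33 with control miR (difference -1.325), and of the PC3 markers CD44 differed by -0.325. Their part in the differences of the developmental factors was not tested.

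Most of the developmental factors read below the array median in PC3. The detection rule kept 60 of the 222, 27.0%, against 51.1% of all measured genes. Among protein-coding genes alone the shares were 27.0% of 204 members and 57.0% of 11880 genes, and for the ZNF zinc finger genes, another large class of DNA-binding proteins, 295 of 488 (60.5%). At the bottom of the scale, 50 members (22.5%) lay below the 25th percentile of both arrays, against 23.5% of all genes, and 112 (50.5%) lay between the 25th percentile and the median, against 25.4%. Only 23 members (10.4%) reached the 75th percentile, against 26.1% of all genes. Array signal at the low end holds background as well as transcript, so a gene below the rule is not shown to be off. Close to the limit, within 0.1 of the median, 4 members passed (HOXC13, LHX2, FOXH1 and SIX5) and 2 did not (HOXB6 and FOXN3-AS1).

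**Figure D1:**
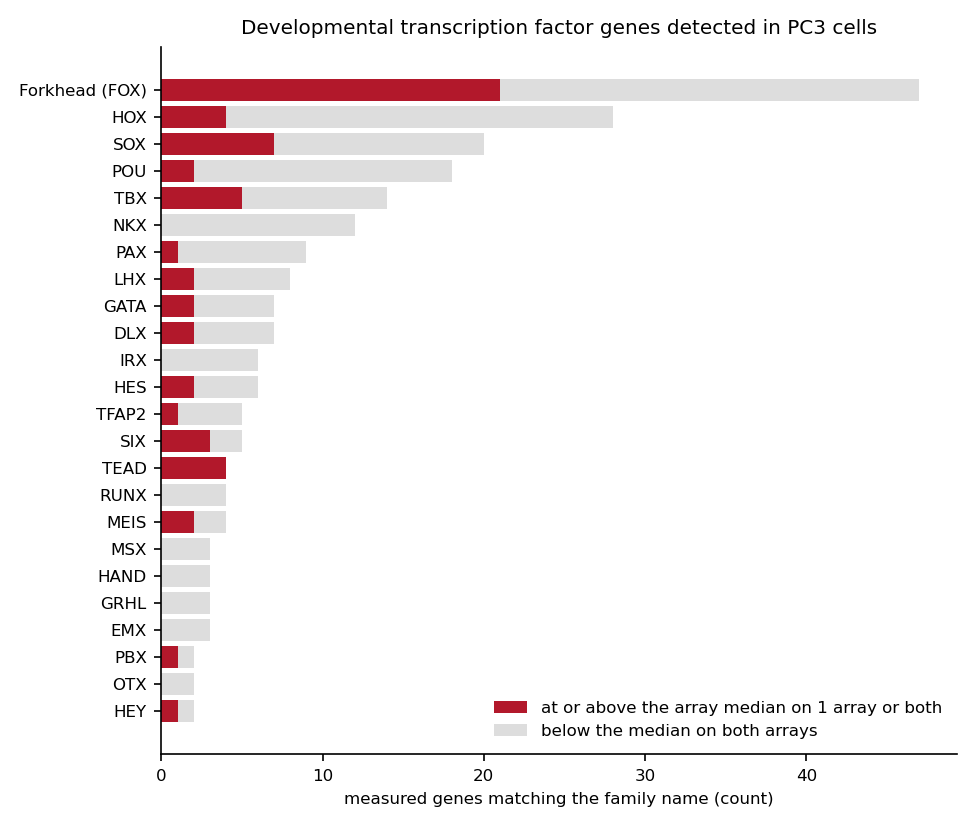
Number of measured genes whose symbol matches each family name, with those at or above the array median on either array in red and those below it on both in grey (horizontal axis, count of genes). Forkhead entries, FOXD2-AS1 among them, hold 21 of the 60 detected members, TEAD has 4 of 4, and the NKX family 0 of 12.

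Detected members came from 16 of the 24 families. All 4 TEAD genes were detected, as were 3 of 5 sine oculis genes and 21 of 47 FOX entries, while only 2 of 18 POU, 1 of 9 PAX and 4 of 28 HOX entries were. The PAX entry was PAX8-AS1, an antisense transcript, so that none of the 8 PAX protein genes was detected. In 8 families no member was detected: NKX (12 genes), IRX (6), RUNX (4), GRHL, HAND, MSX and EMX (3 each) and OTX (2). Of 57 factors listed for a known part in prostate or prostate cancer, 46 were measured, and 21 of these were detected. The share detected was 27.0% over all members and 51.1% over all measured genes.

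Differences between the arrays were small throughout. Of the 60 detected members, 0 were at least 1.5-fold higher on the miR-95 array and 0 at least 1.5-fold lower, against 0.395% and 0.861% of the 7081 detected genes, shares at which 60 genes would hold fewer than 1 in each direction. At a smaller limit, 0.32 on the log2 scale, 2 of the 60 were higher and 3 lower. The background at that limit was 3.08% higher and 5.38% lower, so these counts are near what all detected genes show. Across probe sets of the same gene, the difference varied with a pooled SD of 0.132 (68 detected genes), which is a guide to measurement disagreement and holds no variation between cultures. The 5 members past 0.32 were FOXA2 and SOX8, higher, and DLX2, HES4 and FOXL1, lower.

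**Figure D2:**
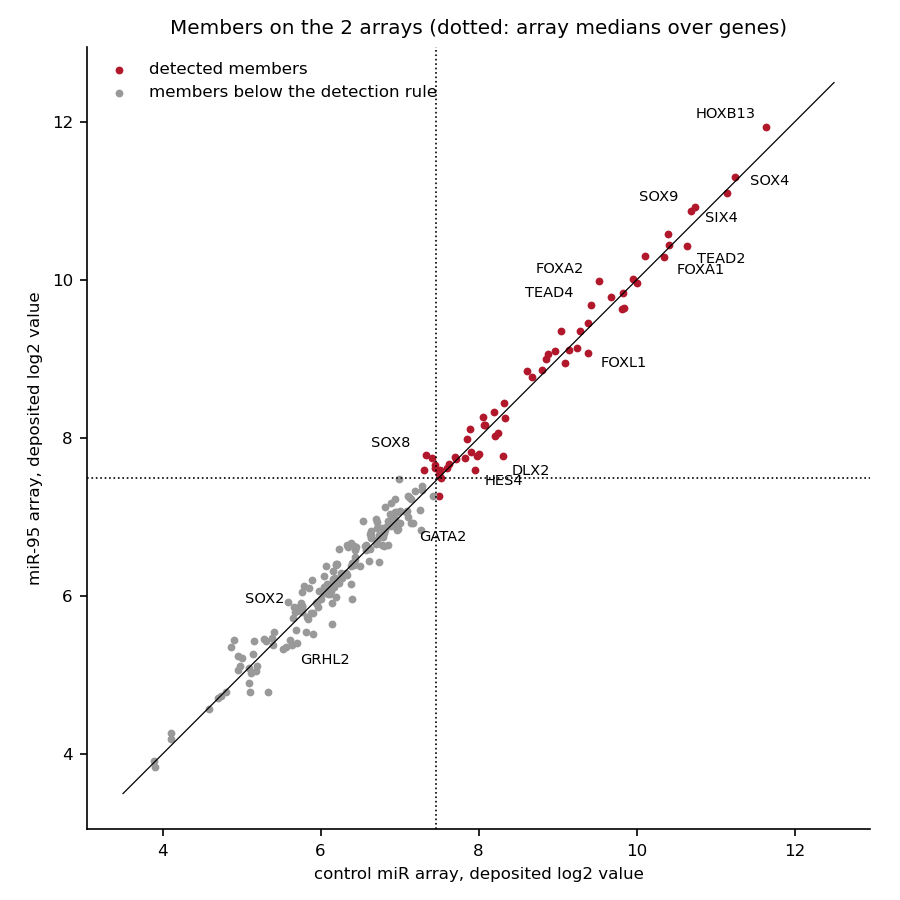
Deposited log2 values of all 222 members on the control miR array (horizontal) and the miR-95 array (vertical). Red points passed the detection rule, grey ones did not, dotted lines are the array medians and the solid line is equality; points keep close to the line on both sides.

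The sign of the difference was positive more often among the members than over all detected genes. Of the 60 detected, 35 had positive and 25 negative differences, 58.3% positive against 40.6% of all detected genes. The median difference was 0.025 (quartiles -0.115 and 0.145), against -0.035 over all detected genes, a gap of 0.06. Of the 35 positive members, 5 (FOXD4L6, HES2, SOX8, SOX21 and TBX1) had passed only through the miR-95 array, and of the 25 negative ones HOXC13 only through the control array, so the rule favours their signs. Among the 54 members at or above the median on both arrays, 30 were positive and 24 negative, 55.6% positive against 40.3% of all genes so detected. Without centring, which lowers every difference by the same amount, 65.0% of members and 49.4% of all detected genes were positive. The 162 members below the rule had a median of -0.015, the same as the -0.015 of all 6783 genes below it, with 77 positive and 85 negative.

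Sign also varied with the genomic span of the genes. Over all detected genes, split into 4 equal classes by span, 56.0% were positive in the shortest class and 29.8% in the longest. Of the 60 members, 34 lay in the shortest class, where 23 were positive and the median was 0.06, against 0.015 for all 1771 genes of that class. In the longer classes 4 of 9, 4 of 8 and 4 of 9 members were positive. The part of span in the members' shift was not tested. The members' median was 0.025 both for the 37 members between the array median and the 75th percentile and for the 23 above it.

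**Figure D3:**
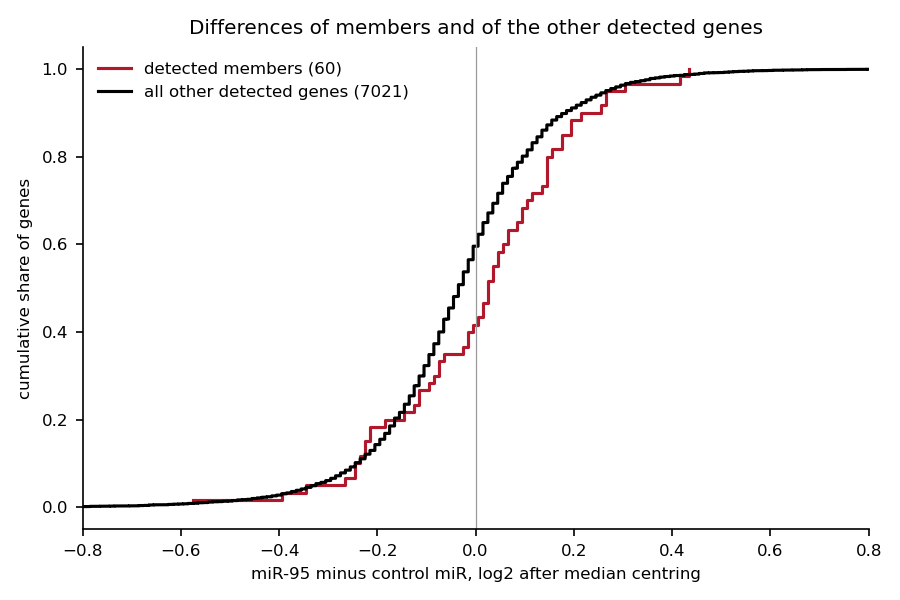
Cumulative share of genes (vertical) against the miR-95 minus control miR difference on the log2 scale (horizontal) for the 60 detected members in red and the 7021 other detected genes in black, drawn from -0.8 to 0.8. Around the middle the red curve lies to the right of the black one, with a median of 0.025 for the members.

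The forkhead family supplied the most detected factors. FOXA1 and FOXA2 are pioneer factors, which bind closed chromatin and open it; FOXA1 works with the androgen receptor in luminal cells, and FOXA2 marks neuroendocrine prostate tumours. FOXA2 read 9.99 with miR-95 and 9.52 with control miR, a difference of 0.435, or 1.35-fold higher. FOXA1 read 10.29 with miR-95 and 10.35 with control miR, a difference of -0.095. FOXA2 had the highest positive difference of all 60 members. FOXA3, the remaining gene of the trio, was below the rule (7.26 with miR-95 and 7.12 with control miR).

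FOXL1, a factor of the gut mesenchyme, read 9.08 with miR-95 and 9.39 with control miR, 1.27-fold lower. Its chromosome 16 neighbour FOXF1, also a mesenchymal factor, was below the rule, at 6.44 with miR-95 and 6.61 with control miR. FOXM1, which drives genes of mitosis, was level, at 10.44 with miR-95 and 10.41 with control miR (difference -0.005). FOXO1 and FOXO4, which AKT keeps out of the nucleus, differed by -0.125 and 0.025, and FOXO3 was below the rule at 7.18 with miR-95 and 6.89 with control miR. Broadly expressed forkheads went both ways by small amounts: FOXN2 -0.215, FOXJ2 -0.185, FOXK1 -0.145, FOXJ3 -0.085, FOXN3 -0.015, FOXK2 0.015, FOXP1 0.035 and FOXP4 0.095. In all, 9 of 21 detected FOX members, counting the antisense FOXD2-AS1, were positive. The median of the 21 was -0.015, and they ran from -0.345 to 0.435. The sign of that median is not settled: it was 0.02 with the values as deposited, 0.01 after quantile normalization and -0.002 after loess.

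FOXR2, a forkhead gene activated in some tumours, read 9.65 with miR-95 and 9.84 with control miR, a difference of -0.225. FOXD4 and FOXD4L6 belong to a set of nearly identical copies, and their probe sets may read each other's transcripts. Their differences were 0.065 and 0.135, and the value of FOXD4L6 is the mean of 2 probe sets that gave 0.195 and 0.075. FOXD1 (-0.115), a kidney stroma factor, FOXS1 (0.005) and FOXH1 (-0.065), a partner of SMAD proteins in Nodal signalling, were detected too.

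Of 7 detected SOX genes, 6 were positive, where 40.6% of all detected genes were. Their median was 0.145 and their range from -0.215 to 0.415. With the values as deposited and after loess or quantile normalization the median was higher, at 0.18, 0.186 and 0.2. Since those settings raised the median, the count of 6 positive genes in each adds little. SOX8, which acts beside SOX9 in gonad and neural crest, read 7.78 with miR-95 and 7.33 with control miR, 1.33-fold higher. SOX21, a repressor in neural progenitors, read 7.75 with miR-95 and 7.41 with control miR, 1.24-fold higher. Both read below the median on the control array and passed only through the miR-95 array, so that the rule favours a positive sign for them. Of the 5 SOX genes at or above the median on both arrays, 4 were positive, with a median of 0.035. SOX7, an endothelial factor of the SOXF group, was well above the median on both arrays, at 9.35 with miR-95 and 9.05 with control miR, and differed by 0.265.

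The SOX factors linked to prostate cancer differed less. SOX9, a regulator of prostate bud growth and of cartilage, read 10.87 with miR-95 and 10.69 with control miR, a difference of 0.145. SOX4, often high in carcinomas, read 11.31 with miR-95 and 11.25 with control miR, a difference of 0.025. SOX12, of the same group as SOX4, differed by 0.035. SOX13 was the member with a negative sign, at 8.07 with miR-95 and 8.25 with control miR (-0.215). SOX2, the pluripotency factor, was far below the median, at 5.86 with miR-95 and 5.73 with control miR.

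**Figure D4:**
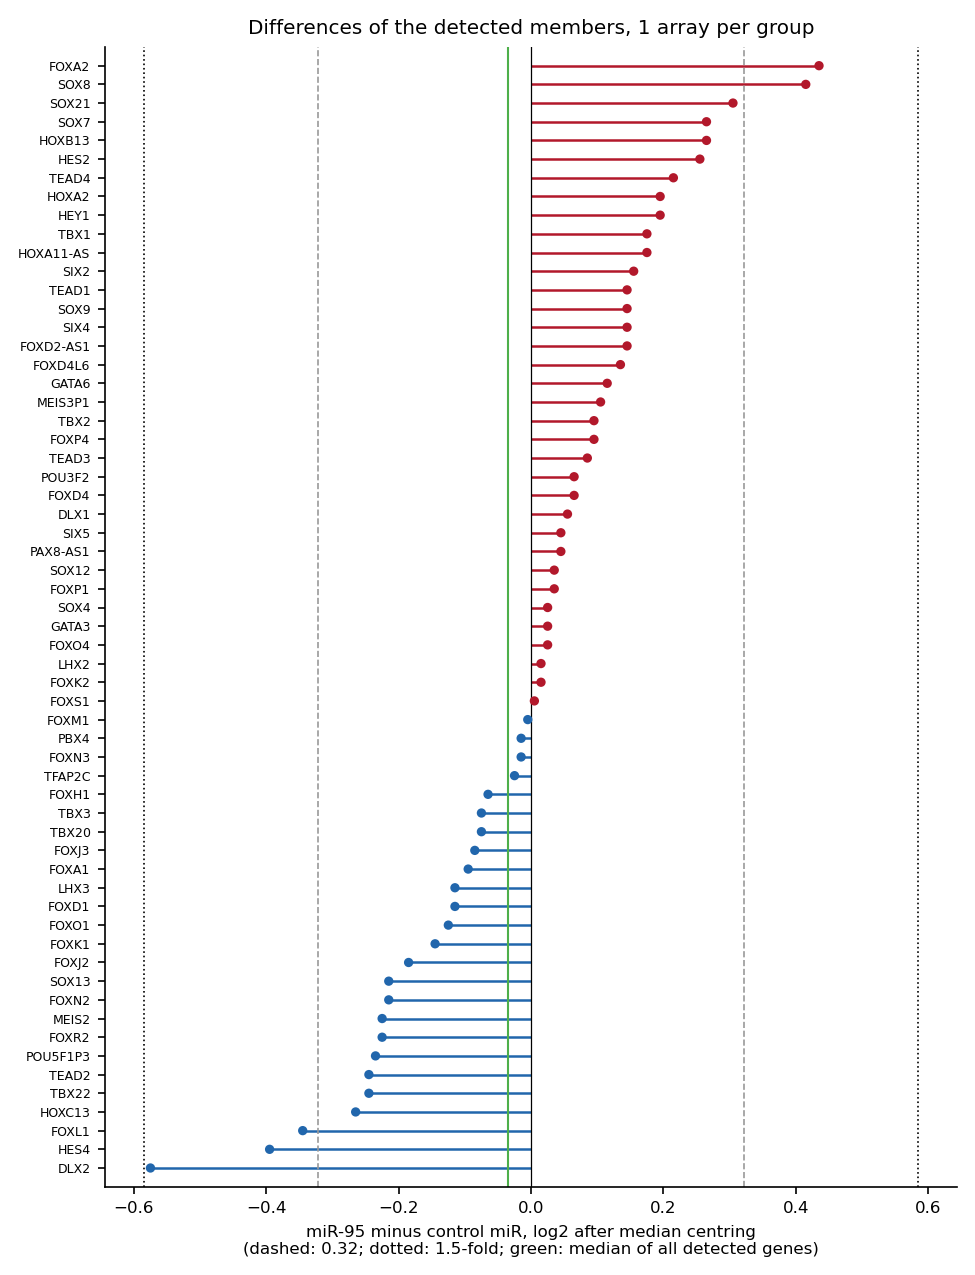
Difference of each of the 60 detected members, miR-95 minus control miR on the log2 scale after median centring (horizontal), sorted, with red for positive and blue for negative values. Dashed lines mark 0.32 and dotted lines 1.5-fold each way, and the green line is the -0.035 median of all detected genes; 5 members pass the dashed lines and none passes the dotted ones.

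HOX genes lie in 4 clusters, and their order along the cluster follows the body axis along which they act. Of 27 HOX protein genes measured, only HOXA2, HOXB13 and HOXC13 were detected. HOXB13, which sits at the 5′ end of the HOXB cluster and marks the prostate, read 11.94 with miR-95 and 11.64 with control miR (difference 0.265). Across detected HOX entries the differences ran from -0.265 to 0.265. Each of the other 9 measured HOXB genes, HOXB1 to HOXB9, was below the median on both arrays. HOXB9, its nearest measured HOX neighbour, read 6.95 with miR-95 and 6.54 with control miR.

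HOXC13, needed for hair and nail, was barely inside the rule and only through the control array, at 7.27 with miR-95 and 7.50 with control miR (-0.265). The 6 other measured HOXC genes were below the rule. So were all 9 HOXD genes, including HOXD13, which acts in urogenital development and read 5.44 with miR-95 and 4.90 with control miR. That difference, 0.505, was the highest of any member, but at such low signal it was 0.256 once an offset of 32 was added on the linear scale. HOXB7, often raised in carcinomas, was below the rule too (6.20 with miR-95 and 5.89 with control miR). HOXA2, a hindbrain and branchial arch gene, was the only HOXA protein gene measured and read 8.12 with miR-95 and 7.89 with control miR (0.195). HOXA11-AS, the antisense transcript of HOXA11, read 8.27 with miR-95 and 8.06 with control miR (0.175). Whether its probe set tells the strands apart is not known here, and the same holds for FOXD2-AS1 (0.145) and PAX8-AS1 (0.045).

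**Figure D5:**
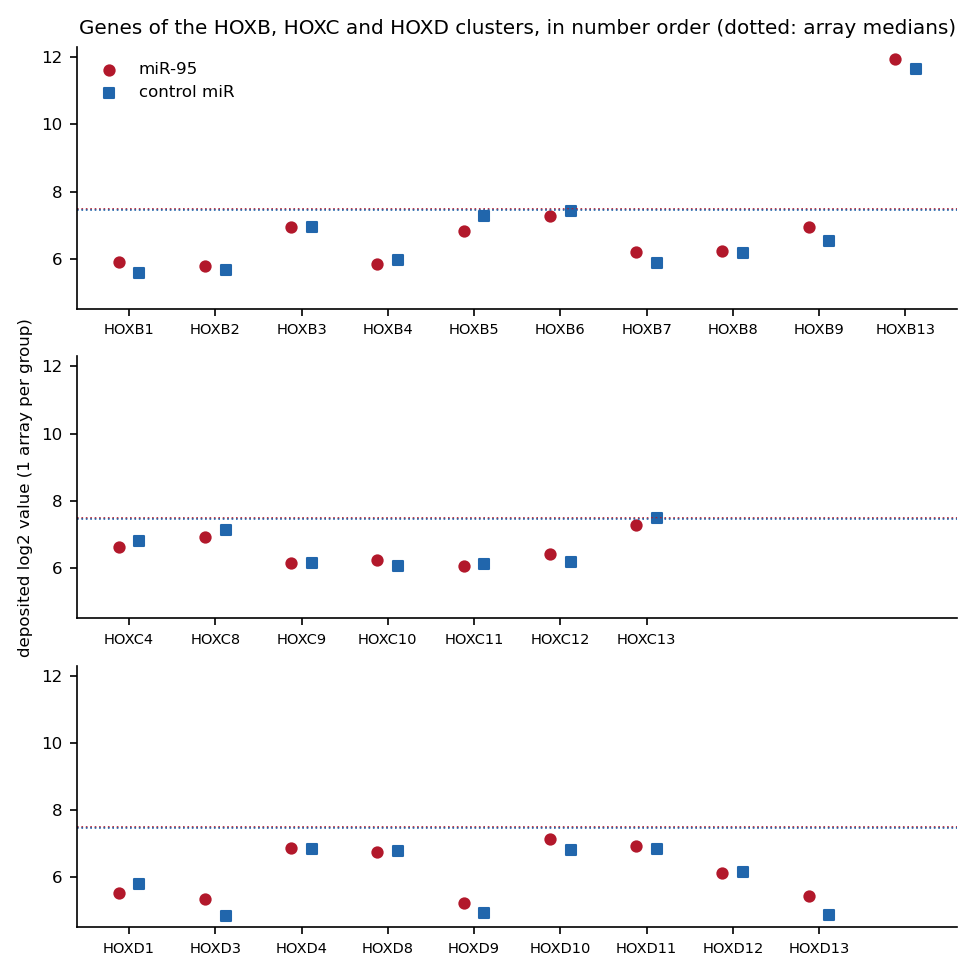
Deposited log2 values (vertical) of the measured HOXB, HOXC and HOXD genes in number order, with red circles for the miR-95 array and blue squares for the control miR array; dotted lines are the array medians. HOXB13 stands clear of the medians, HOXC13 lies at them, and all others lie below.

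Of the homeodomain partners of HOX proteins, MEIS2 read 8.02 with miR-95 and 8.21 with control miR (-0.225) and PBX4 differed by -0.015. MEIS1, which forms complexes with HOX proteins in prostate and blood, was below the rule, at 6.63 with miR-95 and 6.43 with control miR. PBX3 was also below it (7.34 with miR-95 and 7.29 with control miR). Polycomb and trithorax genes keep HOX clusters off or on. Of 37 listed, 28 were measured, and all 28 were detected, against 57.0% of protein-coding genes. Of these, 9 were positive and 19 negative (median -0.045), with PCGF6, a Polycomb RING partner, the only one more than 0.32 higher, at 0.355, followed by PCGF2 at 0.205. Past 0.32 the lower ones were RBBP4 (-0.495), a histone-binding subunit, and EZH2 (-0.345), the H3K27 methyltransferase. The signs and the median lie near those of all detected genes, of which 59.4% were negative, with a median of -0.035. With the values as deposited the split was 14 and 14, where 49.4% of all detected genes were positive.

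DLX1 and DLX2, homeodomain factors of forebrain interneurons and branchial arches, are adjacent on chromosome 2 on opposite strands, each pointing toward the other, and often share enhancers. Both were detected. DLX2 read 7.77 with miR-95 and 8.31 with control miR, a difference of -0.575, or 1.49-fold lower, just short of the 1.5-fold limit and the most negative of the 60. DLX1 read 8.77 with miR-95 and 8.68 with control miR, a difference of 0.055. Their promoters are shown because the adjacent genes gave unlike differences: 250 bases before to 50 after the annotated start, from RefSeq (GRCh38.p14), at chr2:172102851-172103150 on the minus strand for DLX2 and chr2:172085257-172085556 on the plus strand for DLX1. Capitals mark CCAAT on either strand.
DLX2: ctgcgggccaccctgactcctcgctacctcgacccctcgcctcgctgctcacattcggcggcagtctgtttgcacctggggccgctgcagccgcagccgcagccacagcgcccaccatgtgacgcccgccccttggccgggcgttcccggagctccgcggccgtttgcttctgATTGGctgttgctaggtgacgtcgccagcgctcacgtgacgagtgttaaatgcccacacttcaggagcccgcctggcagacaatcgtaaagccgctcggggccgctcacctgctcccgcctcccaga
DLX1: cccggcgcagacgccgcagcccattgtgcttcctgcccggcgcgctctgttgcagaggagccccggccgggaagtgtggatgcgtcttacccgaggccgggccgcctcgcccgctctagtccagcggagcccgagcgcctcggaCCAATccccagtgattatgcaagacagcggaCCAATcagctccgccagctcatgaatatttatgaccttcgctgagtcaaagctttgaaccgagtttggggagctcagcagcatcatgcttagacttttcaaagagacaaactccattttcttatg
DLX2 holds 1 CCAAT, on the reverse strand at position -77 from the start, and DLX1 holds 2 on the forward strand, the first at -106. Of all 35116 RefSeq promoter windows of this length, 34.6% hold CCAAT on 1 strand or the other. The E box CACGTG, left in lower case here, is in the DLX2 window and not in that of DLX1, and 7.26% of all windows hold it. The DLX2 window has 30 CpG dinucleotides and 67.7% G and C, the DLX1 window 23 and 59.0%. A match to these letters describes the sequence and does not show binding.

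Of 51 pairs of consecutive family genes with at most 5 protein-coding genes between them, 2 had both genes detected, 12 had 1 and 37 had none. Over all family genes 27.4% were detected. Many of these pairs lie in the HOXB, HOXC and HOXD clusters, where most genes were below the rule and consecutive pairs share a gene. The pair counts therefore largely repeat the low HOX readings and do not measure whether neighbours are detected together. Besides DLX1 and DLX2, the pair detected was FOXM1 and TEAD4 on chromosome 12, which belong to different families. Among the 12, TBX3 was detected beside TBX5, TBX2 beside TBX4, SIX2 beside SIX3, SIX4 near SIX6, FOXA1 near PAX9 and FOXA2 beside PAX1, where the second-named gene was below the rule each time.

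Most HES and HEY proteins are repressors, and Notch signalling induces some of them, but not all, through the DNA-binding protein RBPJ. HES1 was not among the measured genes. HES4 read 7.59 with miR-95 and 7.95 with control miR, 1.31-fold lower. HEY1 read 8.85 with miR-95 and 8.62 with control miR (0.195), and HES2 7.60 with miR-95 and 7.31 with control miR (0.255), where HES2 was below the median on the control array. The other measured genes of both families, HES3, HES5, HES6, HES7 and HEY2, were below the rule. The detected members thus had both signs.

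The HES4 promoter is shown because it carries the core of the RBPJ motif, TGGGAA, in capitals (GRCh38.p14, chr1:1000048-1000347, minus strand, 250 bases before to 50 after the start).
HES4: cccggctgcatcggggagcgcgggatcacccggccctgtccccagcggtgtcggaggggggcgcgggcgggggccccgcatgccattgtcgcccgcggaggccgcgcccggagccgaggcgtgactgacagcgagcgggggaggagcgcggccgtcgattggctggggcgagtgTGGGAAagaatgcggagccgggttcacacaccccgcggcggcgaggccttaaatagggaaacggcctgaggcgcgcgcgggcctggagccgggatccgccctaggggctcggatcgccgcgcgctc
The core stands once, on the forward strand at position -76. Of the 7 HES and HEY genes with a window, 4 hold the letters on 1 strand or the other (HES3, HES4, HES5 and HEY2). The share was 28.4% over all measured genes with a window, and 24.03% over single RefSeq windows. Of the 4, only HES4 was detected. Of the listed Notch pathway genes, 26 were measured and 14 detected (53.8%), against 57.0% of protein-coding genes. Of the 14, 7 were positive and 7 negative, with a median of 0 that was 0.035 with the values as deposited. The receptor NOTCH2 differed by 0.095, the ligand JAG1 by 0.125 the glycosyltransferase RFNG by 0.155 and RBPJ itself by 0.005. PSEN2, a gamma-secretase subunit, and DTX3L both differed by -0.185. ADAM17, a protease that sheds membrane proteins and can cleave Notch, was the only detected one past 0.32, at -0.485. DLL4, a Notch ligand, was just below the rule, at 7.45 with miR-95 and 6.59 with control miR (0.825).

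TEAD1 to TEAD4 carry the transcriptional output of the Hippo pathway by binding YAP1 and WWTR1 (TAZ). TEAD4 read 9.68 with miR-95 and 9.43 with control miR (0.215), TEAD1 10.58 with miR-95 and 10.40 with control miR (0.145), and TEAD3 8.44 with miR-95 and 8.32 with control miR (0.085). TEAD2 went the other way, at 10.43 with miR-95 and 10.64 with control miR (-0.245). The family therefore held both signs, and it did so with the values as deposited and after loess or quantile normalization. Of 18 measured TEAD cofactors, upstream genes and targets, 15 were detected (83.3%), against 57.0% of protein-coding genes. Of the 15, 4 were positive and 11 negative. The median was -0.125, against -0.035 over all detected genes, of which 59.4% were negative. ANKRD1, a YAP target, was the only one past 1.5-fold, at -0.975 (7.48 with miR-95 and 8.42 with control miR), and it passed the detection rule only through the control array, which favours its sign. In the same list the TEAD cofactor VGLL4 (-0.535) and AMOTL2 (-0.345), an angiomotin that binds YAP, were past 0.32. YAP1 differed by -0.135, WWTR1 by 0.215 and the receptor kinase AXL, another YAP target, by 0.195. CCN2, a further target in the list, was level, at 8.545 with miR-95 and 8.49 with control miR (0.02). With the values as deposited the median of that list was -0.09.

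Sine oculis factors act with EYA phosphatases in kidney, muscle and sense organs. SIX2, of nephron progenitors, read 10.30 with miR-95 and 10.11 with control miR (0.155), SIX4 10.92 with miR-95 and 10.74 with control miR (0.145), and SIX5 7.59 with miR-95 and 7.51 with control miR (0.045). All 3 were positive, where 40.6% of all detected genes were. They were also positive as deposited and after loess or quantile normalization. Those settings raised their median from 0.145 to between 0.18 and 0.2, so the repeated sign adds little. Of their cofactors, EYA1, EYA3 and EYA4 were detected and negative, at -0.275, -0.175 and -0.205. EYA1 passed only through the control array (7.24 with miR-95 and 7.48 with control miR), which favours a negative sign. Over the whole list of cofactors and dimer partners, 18 were measured and 11 detected, 3 positive and 8 negative (median -0.075), none past 0.32. Among all genes 51.1% were detected, and of all detected genes 59.4% were negative (median -0.035). With the values as deposited the list held 3 positive and 6 negative (median -0.04), and after quantile normalization its median was -0.02. The highest were TGIF1 (0.135), a homeodomain corepressor, and TLE5 (0.065), a Groucho-type modulator.

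T-box genes had both signs, from -0.245 to 0.175. TBX2 and TBX3, closely related repressors that bypass senescence, read 7.99 and 9.96 with miR-95, against 7.86 and 10.00 with control miR, differences of 0.095 and -0.075. TBX20, a heart factor, differed by -0.075, TBX22, a palate gene on the X chromosome, by -0.245, and TBX1, a pharyngeal arch gene, by 0.175. The last passed only through the miR-95 array. Of the GATA factors, GATA6, of endoderm, read 9 with miR-95 and 8.85 with control miR (0.115), and GATA3, of luminal epithelium and T cells, differed by 0.025. GATA2, which supports androgen receptor binding, was below the rule, at 6.93 with miR-95 and 7.17 with control miR.

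TFAP2C, an AP-2 factor of surface ectoderm and breast, was level, at 9.84 with miR-95 and 9.83 with control miR (-0.025). POU3F2 (BRN2), a neural factor linked to neuroendocrine prostate cancer, read 8.17 with miR-95 and 8.07 with control miR (0.065). The other POU entry, the pseudogene POU5F1P3, differed by -0.235, and probe sets of POU5F1 copies may share signal. LHX2 and LHX3, LIM-homeodomain factors of brain and pituitary, differed by 0.015 and -0.115. MEIS3P1, a pseudogene of MEIS3, differed by 0.105.

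Several factors with a known place in prostate cancer were below the rule. GRHL2, which maintains epithelial junction genes, read 5.38 with miR-95 and 5.64 with control miR. RUNX1 read 6.93 with miR-95 and 7.01 with control miR, and RUNX2, the bone factor that some prostate tumours express, 6.39 with miR-95 and 6.20 with control miR. GRHL1, a relative of GRHL2, read 6.71 with miR-95 and 6.72 with control miR. Of epithelial targets listed for GRHL, TFAP2 and FOXA factors together, 10 of 16 measured were detected (62.5%), against 57.0% of protein-coding genes. Of these 10, 5 were positive and 5 negative (median -0.035), none past 0.32. The highest were ERBB3 (0.265), a receptor of the EGFR family, and CLDN3 (0.245), a tight junction protein, and the lowest KLF5 (-0.225) and EPCAM (-0.195). OVOL1, an epithelial zinc finger factor, was below the rule with a difference of -0.705. Of the androgen programme, 3 of 7 measured genes were detected: HOXB13, the stress-responsive NDRG1 (0.295) and FKBP5 (-0.365), an androgen and glucocorticoid target. From the retinoid list, an input of HOX genes, 3 of 4 measured were detected: CRABP2 (0.025), DHRS3 (-0.035) and RDH10 (-0.195).

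Of the remaining listed prostate factors below the rule, NKX2-1, the lung and thyroid factor, had the largest difference, at 6.59 with miR-95 and 6.23 with control miR (0.325). FOXQ1 (0.245), MSX1 (0.125), MSX2 (0.045) and IRX4 (0.035) were positive. IRX3 (-0.205), OTX1 (-0.145), PAX8 (-0.105), PAX2 (-0.075), EMX2 (-0.045), HAND1 (-0.025) and IRX5 (-0.015) were negative. The levels of these 11 lay between 4.79 for EMX2 and 7.27 for MSX1 on the miR-95 array and between 4.80 for EMX2 and 7.26 for IRX3 on the control array.

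Below the rule, 5 of the 162 members were more than 0.32 higher and 8 more than 0.32 lower, against 4.79% and 7.30% of all genes below it. The higher ones were HOXD13, FOXN3-AS1, HOXD3, HOXB9 and NKX2-1. The lower ones were LHX4, LHX9, RUNX1-IT1, HOXB5, GATA3-AS1, SOX6, FOXJ1 and SOX11. LHX4, a pituitary factor, read 4.78 with miR-95 and 5.34 with control miR, and its difference of -0.595 was the only one in the 222 to pass 1.5-fold. Both LHX4 values lie below the 25th percentile of their arrays (5.92), where signal holds background as well as transcript.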

How the data were processed

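Total RNA of 2 PC3 lines was measured on 1 array each. The deposited table holds log2 expression values for 23641 probe sets, from 1.79 to 13.84, with the log2 scale read from the values. The authors made them with Affymetrix Expression Console 1.2, per the submitters' processing notes. No source used here states the summarisation, background correction, scaling or genome build. Platform annotation named 1 gene for 14088 probe sets and none for 9553, which were not used. Entrez identifiers of all 13864 genes matched RefSeq (GRCh38.p14), used for names, order and span classes.

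Probe sets of a gene were averaged, arrays centred on their medians, and differences taken as miR-95 minus control miR. Limits were 1.5-fold and 0.32 on the log2 scale. With 1 array a group there is no test, p-value or interval, and the number of arrays limits precision. Named were members past 0.32, the 8 largest differences each way with ties, detected HOX genes, a list of known prostate factors, and of each gene list those past 1.5-fold and the 2 largest each way. Named outside this rule, after their values were seen, were the other detected members, FOXA3, members below the rule past 0.32, neighbours and CD44. So were NOTCH2, RBPJ, EYA3, YAP1, CCN2, AMOTL2 and DHRS3. Members and lists were chosen with earlier results of these data known. Steps were tested on simulated data. The alternatives were 3 other centrings, the brightest probe set, 3 other detection rules, family genes alone and a linear offset. Computation used numpy 2.4.6 and pandas 2.3.3. A GC comparison of promoters was void, since fewer than 80% of members had a promoter sequence.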

Additional observations from a re-analysis of the deposited data

How the results depend on the processing

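No paired analysis was possible because each group holds 1 array, and leaving out a replicate was likewise impossible. The counts moved mainly with the detection rule, by construction, since it sets how many genes enter. With detection at the 25th percentile, 172 members passed, 77.5% against 76.5% of all genes. The lower share of members detected is thus not seen at that limit. Of the 172, 88 were positive and 84 negative, 51.2% positive against 43.0% of all genes so detected. Past 0.32, 5 were higher and 7 lower, and the shares of all genes past 0.32 were not counted at this setting. At the 75th percentile 23 passed, 10.4% against 26.1% of all genes. Of these, 13 were positive and 10 negative, with 1 higher (FOXA2) and 1 lower (FOXL1). Requiring both arrays at the median left 1 member higher past 0.32, since SOX8 dropped out. Detected members past 1.5-fold stayed at 0 in each direction under all 9 alternatives. Without centring, SOX21 joined the higher members, and FOXL1 came short of the limit there (-0.31) and after loess or quantile normalization. The members' median ranged from 0.0125 to 0.06 and exceeded that of all genes under the same setting by 0.0375 to 0.07. Of the 60 detected members, 56 kept their sign under the 5 settings that act on single values, and the 4 that did not had differences of at most 0.025 in size. The number of arrays and signal near background limit every value here.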
